A study of Mus musculus with 8 samples.

Results

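MALP2 was compared with no treatment in mouse bone marrow-derived macrophages, gene by gene, over the genes that the deposited table reports with an accepted estimate in both libraries: 36418 of 36806 gene lines. The cells were grown from C57BL/6 bone marrow in medium conditioned by L929 fibroblasts, a source of the growth factor CSF1, and were used on day 7 of differentiation. One culture received MALP2 at 1 ng/ml for 4 h and the other was left untreated. The same series holds 6 more cultures, given IFNg, IL4, TNFa, TGFb1, IL1b or CpG for 4 h. Poly(A) RNA was sequenced, and every condition is represented by 1 library (8 libraries in all). A difference between MALP2 and untreated cells is therefore a difference between 2 libraries, without a replicate check, and no p-value was computed.

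MALP2 is the diacylated lipopeptide of a mycoplasma. The receptor TLR2, paired with TLR6, binds it at the macrophage surface, and the adaptors TIRAP and MyD88 then recruit IRAK kinases and TRAF6, which activate NF-kB and the MAP kinases. Macrophages answer within hours by transcribing cytokines, chemokines, acute phase proteins and a set of inhibitors that limit the same pathway.

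Levels are given in FPKM, which scales fragment counts by transcript length and library size, with the authors' lower and upper confidence bounds in parentheses. Those bounds describe uncertainty within 1 library, and their level is not stated in the files. A gene was compared when it reached 1 FPKM in either library, which 12722 genes did. Log2 changes are of (MALP2 FPKM + 1) over (untreated FPKM + 1), so the change of a gene with a low level is understated. A gene is called higher or lower here when this change is at least 1 in size, that is, 2-fold.

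At least 2-fold higher after MALP2 were 1212 genes, 9.53% of those compared, and 1491 genes, 11.7%, were at least 2-fold lower. The authors' bounds in the 2 libraries did not overlap for 643 of the higher genes (5.05% of those compared) and 854 of the lower genes (6.71%). These shares of all compared genes are the background against which the counts in gene lists stand. The lists were chosen with earlier results of these data known, so their counts are description only. The 23 lists described here hold 643 genes, of which 629 had an accepted estimate and 575 were compared, with 220 of them higher and 80 lower. A 4-fold difference was reached by 337 higher and 318 lower genes, and a 16-fold difference by 75 higher and 44 lower genes. Of the 75 genes at least 16-fold higher, 55 were protein-coding, all 55 with separate bounds, and 15 were short RNAs. Of the 44 at least 16-fold lower, 17 were protein-coding, 14 of them with separate bounds, and 20 were annotated as short RNAs such as snoRNA, snRNA and miRNA, which poly(A) selection captures poorly. Lower genes were more numerous than higher ones, but not after centring on the median gene, which gave 1365 higher and 1302 lower genes. Among genes with separate bounds, lower genes stayed more numerous, at 668 higher and 797 lower. There only the log2 change was centred and the bounds were not, so the 2 centred counts are not alike. Absolute depth is unknown, because the table gives no counts. Among 1110 genes above 0 but under 0.05 FPKM in both libraries, the most common ratio of MALP2 to untreated FPKM was 1.44, in a peak of 181 genes. If that peak holds genes with 1 read in each library, a read added more FPKM in the MALP2 library, which would then be the shallower of the pair. Listed at 0 in untreated cells were 52 of the higher genes, and 86 of the lower genes were listed at 0 after MALP2, for which no fold is given.

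**Figure D1:**
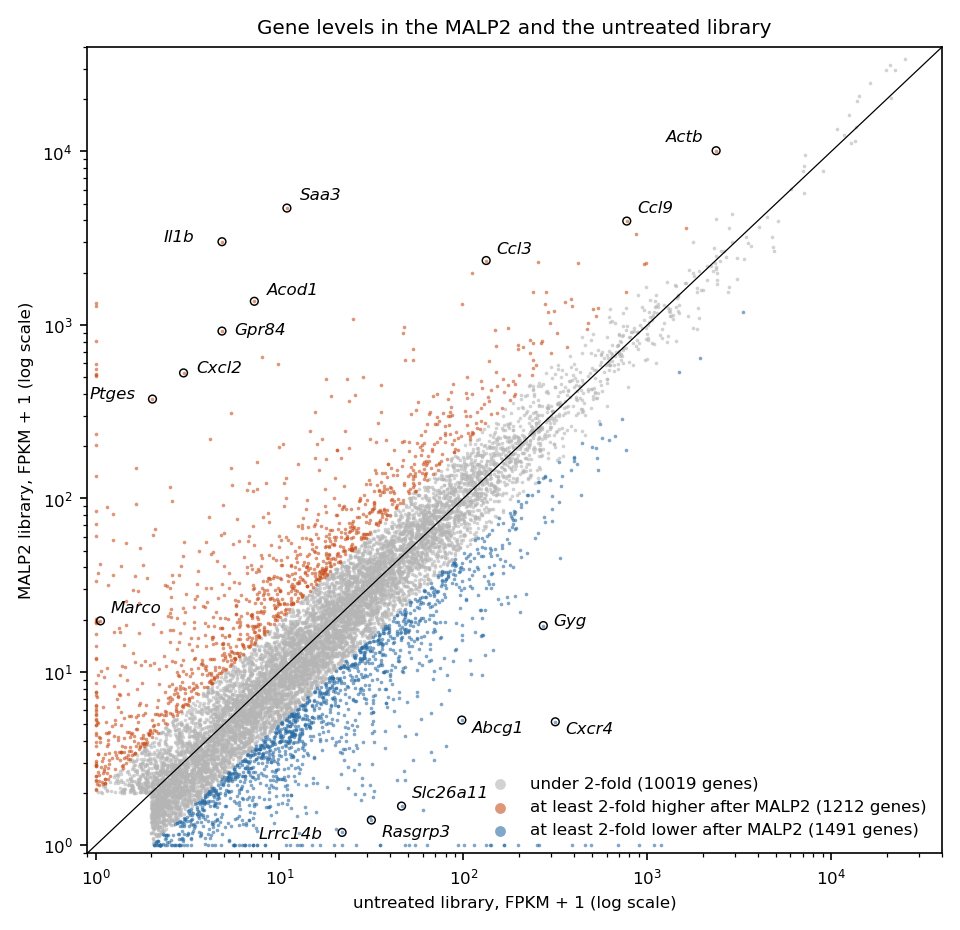
Level of each of the 12722 compared genes in the MALP2 library (vertical axis) and in the untreated library (horizontal axis), as FPKM + 1 on log scales, with the diagonal marking equal levels. Il1b and Saa3 stand farthest above the diagonal and Cxcr4 farthest below it among the genes ringed, and genes listed at 0 in either library lie along that edge.

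The cytokine gene Il1b had the highest log2 change among genes with separate bounds and the authors' own call. Its level was 3018 FPKM (626 to 5409) after MALP2 and 3.87 FPKM (1.24 to 6.49) in untreated cells, a log2 change of 9.28. Il1b encodes the pro-form of interleukin 1 beta and lies on mm9 chromosome 2, in a locus the deposited table gives as 129190305 to 129201484. The acute phase gene Saa3, a serum amyloid A made outside the liver, was at 4717 FPKM (1355 to 8079) after MALP2 and 9.98 FPKM (3.09 to 16.9) in untreated cells. Its locus on mm9 chromosome 7 runs between 53967367 and 53971046, and its log2 change was 8.75. The level of Saa3 ranked 5 among 20051 protein-coding genes in the MALP2 library and 6030 in the untreated library, and that of Il1b ranked 12 after MALP2 and 8168 in untreated cells. Together these 2 genes made up 1.32% of the summed FPKM of protein-coding genes after MALP2 and 0.00262% in untreated cells. Marco, a scavenger receptor that binds bacteria, was far less abundant: 18.7 FPKM (7.34 to 30) after MALP2 and 0.0638 FPKM (0.00629 to 0.121) in untreated cells, a log2 change of 4.21. For all 3 genes the bounds of the 2 libraries were far apart.

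Behind Il1b and Saa3 came a medium-chain fatty acid receptor, an itaconate-making enzyme and a prostaglandin synthase. Gpr84, the receptor, had 921 FPKM (277 to 1565) after MALP2 and 3.87 FPKM (1.3 to 6.43) in untreated cells. Acod1, which makes itaconate from aconitate, had 1368 FPKM (285 to 2451) after MALP2 and 6.3 FPKM (2.42 to 10.2) in untreated cells. Ptges, the inducible synthase of prostaglandin E2, had 373 FPKM (213 to 533) after MALP2 and 1.04 FPKM (0.427 to 1.66) in untreated cells. Their log2 changes lay between 7.52 and 7.57. Next were the neutrophil chemokines Cxcl2 (7.46), Cxcl1 (6.50) and Cxcl3 (6.02), the cytokines Tnf (6.36) and Il1a (6.27), and Socs3, an inhibitor of cytokine receptors (5.92). The membrane protease gene Mmp14 (5.84), the cyclooxygenase gene Ptgs2 (5.80), the cholesterol 25-hydroxylase gene Ch25h (5.71) and the immune receptor gene Tarm1 (5.53) complete the 15 highest. In the authors' deposited table, each of these 15 genes carries a q-value of 0, as printed there. The choice of these genes required the authors' call, so this is no added support, and that q-value too rests on 1 library a side.

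**Figure D2:**
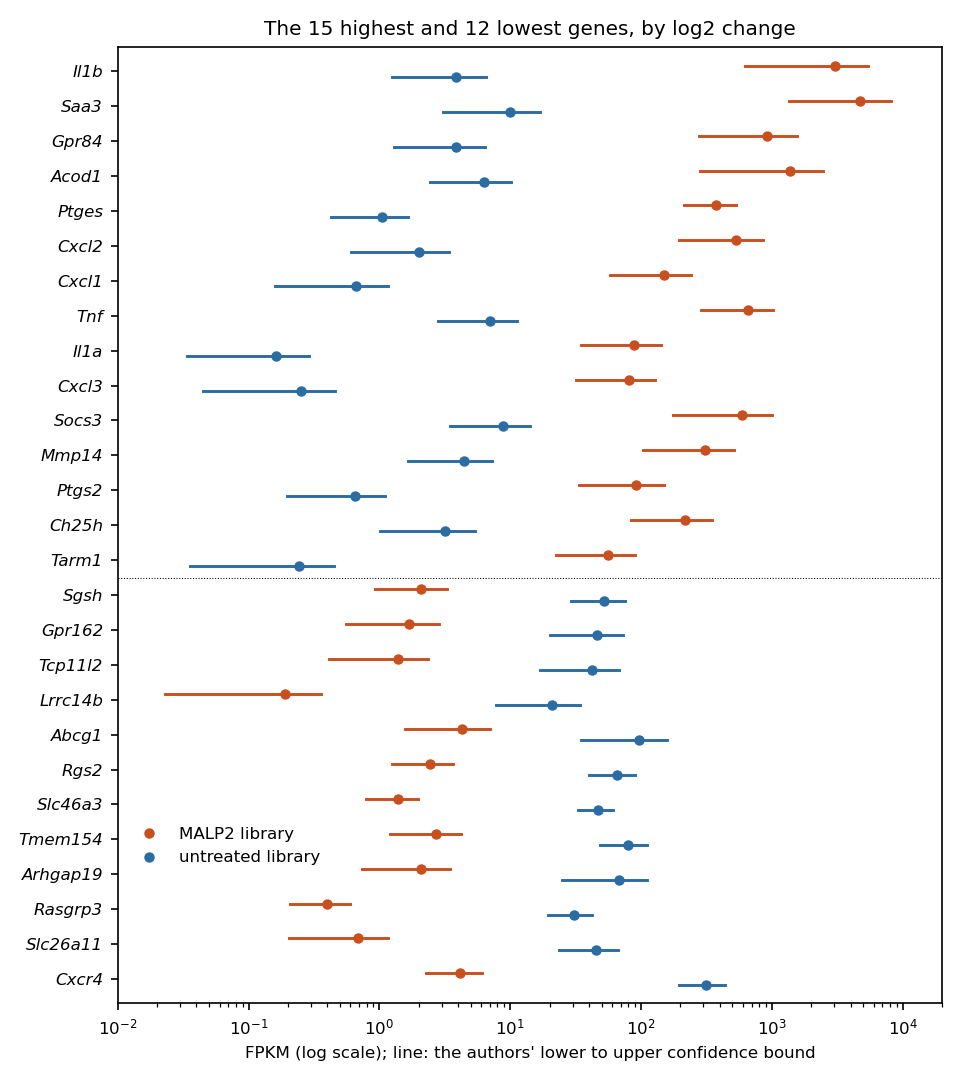
The 15 genes with the highest and the 12 with the lowest log2 change, with the FPKM of each in the MALP2 library (orange, above) and in the untreated library (blue, below) on a log scale; lines span the authors' confidence bounds. For none of the 27 genes do the bounds of the 2 libraries meet, which the choice of these genes required.

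Promoter sequence is shown for the 3 marker genes and for the 4 of the 15 highest genes whose RefSeq promoter window holds the NF-kB letters searched, GGANTTTCC. Other spellings of the motif were not searched, so the remaining genes are not shown to lack it. The stretch printed runs from 150 bases before the RefSeq start site through the first 20 bases after it, 5′ to 3′ on the gene's strand, in build GRCm38.p6, and capitals mark every match to a motif searched. The motifs, searched on either strand, were those of NF-kB (GGANTTTCC), of the cyclic AMP response element CRE (TGACGTCA), of the interferon response element ISRE (GAAANNGAA) and of C/EBP (TTGCNNAA). AP-1 (TGANTCA) was searched as well and had no match in these stretches. The TATA box was searched as TATAAA. No matches overlap in these stretches.
Cxcl2 (chr5:90903749-90903918, plus strand): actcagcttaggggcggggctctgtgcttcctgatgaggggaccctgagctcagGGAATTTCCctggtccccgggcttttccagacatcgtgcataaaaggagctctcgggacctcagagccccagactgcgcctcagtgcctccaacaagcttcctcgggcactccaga
Cxcl1 (chr5:90891095-90891264, plus strand): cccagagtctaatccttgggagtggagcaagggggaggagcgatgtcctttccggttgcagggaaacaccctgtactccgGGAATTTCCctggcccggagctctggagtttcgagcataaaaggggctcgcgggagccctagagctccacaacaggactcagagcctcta
Cxcl3 (chr5:90785951-90786120, plus strand): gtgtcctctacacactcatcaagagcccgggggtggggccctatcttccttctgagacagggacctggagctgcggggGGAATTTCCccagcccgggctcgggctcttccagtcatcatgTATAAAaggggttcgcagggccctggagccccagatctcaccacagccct
Acod1 (chr14:103046862-103047031, plus strand): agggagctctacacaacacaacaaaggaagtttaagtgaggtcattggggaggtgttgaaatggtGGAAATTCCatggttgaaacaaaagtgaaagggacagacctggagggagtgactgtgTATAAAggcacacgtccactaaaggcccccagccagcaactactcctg
Il1b (chr2:129371120-129371289, minus strand): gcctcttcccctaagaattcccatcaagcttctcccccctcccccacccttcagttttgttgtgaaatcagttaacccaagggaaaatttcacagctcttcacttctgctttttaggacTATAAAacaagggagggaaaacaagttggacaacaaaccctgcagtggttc
Saa3 (chr7:46715657-46715826, minus strand): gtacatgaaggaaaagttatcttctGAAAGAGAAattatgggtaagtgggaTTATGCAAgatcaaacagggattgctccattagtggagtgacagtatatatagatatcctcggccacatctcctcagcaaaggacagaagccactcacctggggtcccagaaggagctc
Marco (chr1:120505005-120505174, minus strand): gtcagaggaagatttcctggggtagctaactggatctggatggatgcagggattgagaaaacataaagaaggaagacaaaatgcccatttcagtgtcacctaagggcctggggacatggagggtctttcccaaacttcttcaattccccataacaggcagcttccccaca
The chemokine trio Cxcl1, Cxcl2 and Cxcl3 lies together on chromosome 5, and all 3 carry the same NF-kB match, GGAATTTCC, starting 70, 96 and 72 bases before their start sites. Acod1 holds GGAAATTCC, which matches on the other strand, at 85 bases before its start site. A TATA match lies 28 to 31 bases before the start in Acod1, Cxcl3 and Il1b. Saa3 holds an ISRE match 125 bases and a C/EBP match 99 bases before its start, and none of these motifs was found in the Marco window.

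Over the wider gene sets, the NF-kB letters were found in the 300-base window (250 before to 50 after the start) of 29 of 788 higher genes (3.68%). They were found in 15 of 1052 lower genes (1.43%), 97 of 6556 genes under 2-fold (1.48%) and 392 of all 27025 genes with a window (1.45%). Among the genes at least 16-fold higher, 5 of 41 (12.2%) held them, and 9 of 41 (22%) held the AP-1 letters, searched as TGANTCA. For AP-1 the share was 10% of higher genes, 7.22% of lower genes, 5.7% of genes under 2-fold and 8.97% of all genes with a window. TATA matches stood in 34.1% of the windows of genes at least 16-fold higher, in 11.7% of higher, 9.79% of lower, 7.87% of under 2-fold and 15.7% of all windows. ISRE letters stood in 9.26% of higher, 9.89% of lower, 8.72% of under 2-fold and 9.76% of all windows, and C/EBP letters in 12.3% of higher, 12.5% of lower, 9.44% of under 2-fold and 12.2% of all windows. The CRE letters stood in 3.93% of higher, 3.23% of lower, 3.68% of under 2-fold and 2.03% of all windows. A match is a run of letters, not a shown binding site, and the sets were defined by the same libraries.

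The receptor of MALP2 was itself among the transcripts that differed. Tlr2 was at 401 FPKM (123 to 679) after MALP2 and 70.6 FPKM (26.7 to 115) in untreated cells, a log2 change of 2.49 with separate bounds. Its partner for diacylated lipopeptides, Tlr6, was at 13.7 FPKM after MALP2 and 9.44 FPKM in untreated cells, under 2-fold. Tlr1, the partner for triacylated lipopeptides, was at 65.4 FPKM after MALP2 and 21.6 FPKM untreated, and the co-receptor Cd14 at 2282 FPKM after MALP2 and 417 FPKM untreated. For both, the bounds overlapped. Of the 26 receptor and signalling genes compared, 6 were higher and 1 lower, with 19 under 2-fold and a median log2 change of 0.22. Over all compared genes the median was -0.10.

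Most of the core signal chain differed little. Tirap was at 8.44 FPKM after MALP2 and 8.97 FPKM in untreated cells, Traf6 at 8.1 FPKM after MALP2 and 10.5 FPKM untreated, and the kinase genes Irak1 (44.2 FPKM after MALP2, 57.6 FPKM untreated) and Irak4 (18.1 FPKM after MALP2, 31.5 FPKM untreated) were also under 2-fold. Myd88 stood at 159 FPKM after MALP2 and 72.8 FPKM in untreated cells, with overlapping bounds. The higher members with separate bounds were Tlr2, Irak2 (65.7 FPKM after MALP2 and 19.8 FPKM untreated) and Irak3 (89.2 FPKM after MALP2, 16.7 FPKM untreated), which encodes an inhibitory member of the IRAK family. Mapk14, the gene of the p38 alpha kinase, was the lower one, at 55.5 FPKM after MALP2 and 129 FPKM in untreated cells.

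Other pattern recognition receptors were lower more often than higher: 7 of 19 were lower, 5 of them with separate bounds, and 2 were higher. Of the endosomal nucleic acid receptors Tlr3, Tlr7, Tlr8, Tlr9 and Tlr13, all but Tlr3 were at least 2-fold lower. Tlr7 was at 10.7 FPKM after MALP2 and 65.4 FPKM in untreated cells, Tlr9 at 11 FPKM after MALP2 and 50.8 FPKM untreated, Tlr8 at 11.8 FPKM after MALP2 and 41.5 FPKM untreated, and Tlr13, with overlapping bounds, at 32.5 FPKM after MALP2 and 97.5 FPKM untreated. Tlr3, with overlapping bounds, was at 1.26 FPKM after MALP2 and 3 FPKM untreated. Tlr4, the lipopolysaccharide receptor, was at 2.86 FPKM after MALP2 and 12.8 FPKM in untreated cells. The 2 higher members were sensors inside the cell. Nlrp3, which forms the inflammasome that matures interleukin 1 beta, was at 450.0 FPKM after MALP2 and 34.8 FPKM in untreated cells (log2 change 3.65), and Nod2, a sensor of muramyl dipeptide, at 13.1 FPKM after MALP2 and 2.55 FPKM untreated. The inflammasome adaptor Pycard (0.99) and the protease Casp1 (0.04) did not reach 2-fold.

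Transcripts of the NF-kB system were higher as a group, in 9 of 11 genes, all 9 with separate bounds, and none was lower. The median log2 change was 1.93. The inhibitor Nfkbia, which holds NF-kB in the cytoplasm, was at 625 FPKM after MALP2 and 52.5 FPKM in untreated cells. Nfkbiz, a nuclear co-regulator that helps transcribe late cytokine genes, had the largest log2 change of the list, 4.43, at 118 FPKM after MALP2 and 4.51 FPKM in untreated cells. The subunit genes Nfkb1 (1.93), Nfkb2 (2.07) and Relb (1.57) were higher, whereas Rela (0.24) and Rel (0.57) were under 2-fold.

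Negative feedback genes followed the same direction: 19 of 29 were higher, all 19 with separate bounds, and 2 were lower (median 2.50). Socs3 was at 592 FPKM after MALP2 and 8.76 FPKM in untreated cells. The interleukin 1 receptor antagonist Il1rn had 1082 FPKM after MALP2 and 24 FPKM in untreated cells, a log2 change of 5.44. Tnfaip3, the ubiquitin editor A20 that shuts off NF-kB signalling, was at 162 FPKM after MALP2 and 6.54 FPKM in untreated cells. The RNA-degrading regulator genes Zc3h12a (3.65) and Zfp36 (2.58) and the MAP kinase phosphatase genes Dusp2 (3.73) and Dusp1 (3.06) were higher as well. Il10, an anti-inflammatory cytokine, reached 18.1 FPKM after MALP2, against 2.02 FPKM in untreated cells. The 2 lower members were receptors: Cd200r1, an inhibitory receptor (4.39 FPKM after MALP2, 18.2 FPKM untreated), and Sigirr, an inhibitory member of the interleukin 1 receptor family (0.515 FPKM after MALP2, 2.76 FPKM untreated).

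Of 27 cytokine and growth factor genes, 17 were higher, 15 with separate bounds, and 1 was lower (median 1.56). Tnf was at 655 FPKM (287 to 1023) after MALP2 and 6.99 FPKM (2.83 to 11.2) in untreated cells. Interleukin genes below Il1b on this list covered a wide range of levels. Il1a was at 88.8 FPKM after MALP2 and 0.161 FPKM untreated, Il6 at 8.66 FPKM after MALP2 and 0.0326 FPKM untreated, Il12b at 5.26 FPKM after MALP2 and 0.104 FPKM untreated, and Il27 at 4.84 FPKM after MALP2 and 0.371 FPKM untreated. Csf3, the granulocyte growth factor gene, was at 19.1 FPKM after MALP2 and 0.0118 FPKM in untreated cells, and Csf2 at 1.12 FPKM after MALP2 while listed at 0 in untreated cells. The platelet-derived growth factor gene Pdgfb (3.27) and the endothelin gene Edn1 (3.25) were higher too. The lower member was Il15, which sustains NK cells, at 1.51 FPKM after MALP2 and 10.1 FPKM in untreated cells. Ifnb1, the interferon beta gene, stayed under the floor of comparison at 0.222 FPKM after MALP2 and 0.0517 FPKM in untreated cells.

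The 22 chemokine genes compared had the highest median of the 23 lists, 3.26: 19 were higher, 17 with separate bounds, and 0 were lower. Monocyte chemokines were abundant. Ccl3 reached 2350.4 FPKM after MALP2, against 132 FPKM in untreated cells, Ccl4 1999 FPKM after MALP2 against 109.9 FPKM untreated and Ccl9 3968 FPKM after MALP2 against 772 FPKM untreated. Ccl3, Ccl4 and Ccl9 together held 1.41% of the summed protein-coding FPKM after MALP2 and 0.192% in untreated cells, a trio chosen for this sum after its values were seen. The neutrophil chemokine Cxcl2 was at 528 FPKM (196 to 859.6) after MALP2 and 2.01 FPKM (0.602 to 3.41) in untreated cells. Cxcl1 was at 149 FPKM after MALP2 and 0.663 FPKM untreated, and Cxcl3 at 80.3 FPKM after MALP2 and 0.251 FPKM untreated. The monocyte attractants Ccl7 (4.79) and Ccl2 (4.31), the T cell attractants Ccl5 (3.94) and Ccl22 (3.87), and Cxcl14 (3.49) were also higher. Interferon-inducible chemokines differed less: Cxcl10 was at 99.4 FPKM after MALP2 and 26.5 FPKM in untreated cells, and Cxcl9 and Cxcl11 stayed under 1 FPKM in both.

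Chemoattractant and purine receptors differed in both directions, with 13 of 31 higher and 9 lower (median 0.60). Cxcr4, the receptor of Cxcl12 that keeps cells in the marrow, had the lowest log2 change of all genes with separate bounds and the authors' call, -5.94. It was at 4.16 FPKM (2.27 to 6.05) after MALP2 and 315 FPKM (195 to 435) in untreated cells, and its rank among protein-coding genes was 7611 after MALP2 and 213 in untreated cells. Receptors for bacterial formyl peptides were higher, Fpr1 at 54 FPKM after MALP2 and 0.46 FPKM untreated and Fpr2 at 17.7 FPKM after MALP2 and 0.468 FPKM untreated. The adenosine receptor genes Adora2b (4.99) and Adora2a (3.74) were higher, and the nucleotide receptor genes P2ry14 (-2.81), P2rx7 (-1.86) and P2ry13 (-1.69) were lower. Ccr1 was higher (24.2 FPKM after MALP2 and 3.03 FPKM untreated), whereas Ccr2, the receptor of Ccl2, was lower (12.5 FPKM after MALP2, 34.9 FPKM untreated).

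Among acute phase and antimicrobial genes 9 of 16 were higher and 0 lower (median 1.12, but 0.24 without the 1 FPKM minimum). Besides Saa3, the siderophore-binding protein gene Lcn2 was at 113 FPKM after MALP2 and 6.58 FPKM in untreated cells, and the haptoglobin gene Hp at 56.2 FPKM after MALP2 and 4.99 FPKM untreated. Saa1 was at 4.34 FPKM after MALP2 and listed at 0 in untreated cells, a value that may include reads of the near-identical Saa2. The complement genes parted: Cfb (2.73) was higher, while C1qa (0.14), C1qb (0.08) and C1qc (-0.12), the C1q chains, were under 2-fold.

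Scavenger and C-type lectin receptors included 9 higher genes among 25, all 9 with separate bounds, and 2 lower (median 0.45). With no minimum level the median was -0.11. Beside Marco, the higher members included Olr1, the oxidised lipoprotein receptor (36.3 FPKM after MALP2, 0.0335 FPKM untreated), Trem1, an amplifier of inflammatory signals (30.8 FPKM after MALP2, 0.176 FPKM untreated), and Clec4e, the Mincle lectin (487 FPKM after MALP2, 22.2 FPKM untreated). Msr1, the class A scavenger receptor, was at 168 FPKM after MALP2 and 16.9 FPKM in untreated cells. Clec10a, a galactose-binding lectin, was lower (10.3 FPKM after MALP2, 56.6 FPKM untreated), and the mannose receptor Mrc1 (-0.89) and Trem2 (-0.39) were under 2-fold.

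Of the glycolysis and hypoxia genes 22 of 29 were higher, 13 with separate bounds, and 0 were lower (median 1.67). The glucose transporter Slc2a1 was at 489.6 FPKM after MALP2 and 16.9 FPKM in untreated cells, a log2 change of 4.77, and the lactate exporter Slc16a3 at 503 FPKM after MALP2 and 27.5 FPKM untreated. Enzymes along the pathway were higher, among them Hk2 (2.64), Pfkl, Pfkfb3 (3.03), Tpi1 (2.04), Eno1 (1.84) and Pgk1 (1.55). Ldha, which makes lactate, was at 1415 FPKM after MALP2 and 383 FPKM in untreated cells, with overlapping bounds. The oxygen-sensing hydroxylase Egln3 (28.4 FPKM after MALP2, 0.696 FPKM untreated) was higher. So was the hypoxia factor Hif1a (58.3 FPKM after MALP2, 12.3 FPKM untreated), counted with the transcription factors. Gapdh, listed at 109 FPKM after MALP2 and 40.5 FPKM in untreated cells, shares its sequence with many pseudogenes, so its values are uncertain.

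**Figure D3:**
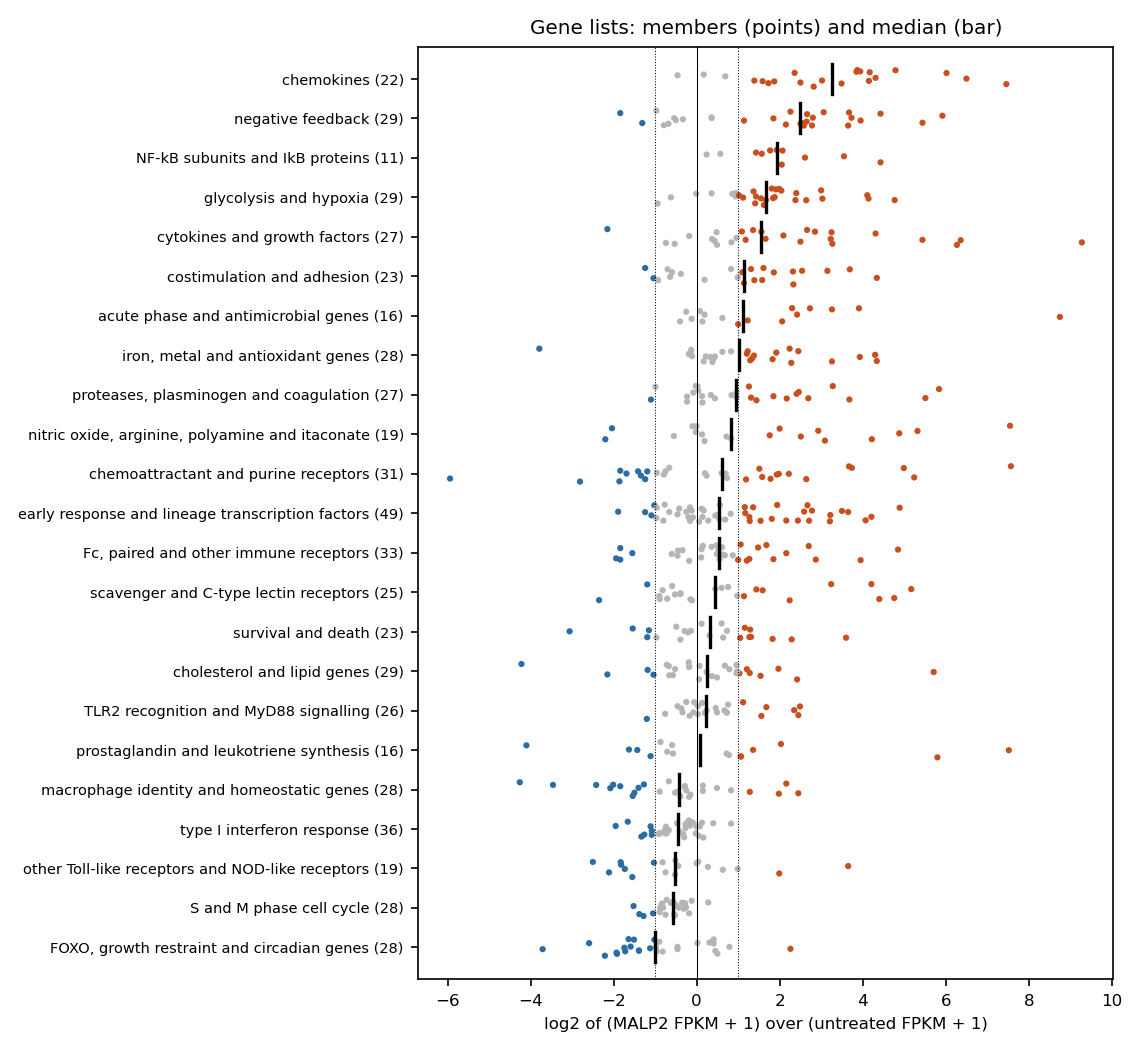
Log2 change, MALP2 over untreated on the FPKM + 1 scale, of each compared member (points) of the 23 gene lists and the list median (black bar), with the number of compared members in parentheses and dotted lines at 2-fold. Chemokines have the highest median, 3.26, and the FOXO, growth restraint and circadian genes the lowest, -1.0.

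Arginine and itaconate metabolism differed at single steps, with 9 of 19 genes higher and 2 lower (median 0.83). The nitric oxide synthase Nos2 was at 40.9 FPKM after MALP2 and 0.053 FPKM in untreated cells, and Arg1, the arginase that competes for the same substrate, at 18.3 FPKM after MALP2 and 0.0337 FPKM untreated. The arginine transporter Slc7a2 (50.5 FPKM after MALP2, 0.754 FPKM untreated) and Ass1, which rebuilds arginine from citrulline (20 FPKM after MALP2, 1.47 FPKM untreated), were higher. The 2 lower genes were Idh1, an isocitrate dehydrogenase (39.4 FPKM after MALP2, 184 FPKM untreated), and Sat1, a polyamine acetyltransferase (73.2 FPKM after MALP2, 303 FPKM untreated). Prostaglandin genes showed an enzyme of synthesis and an enzyme of breakdown in opposite directions. Ptgs2 was at 91.5 FPKM (33.8 to 149) after MALP2 and 0.655 FPKM (0.197 to 1.11) in untreated cells, whereas Hpgd, which inactivates prostaglandins, was at 0.892 FPKM after MALP2 and 31.4 FPKM in untreated cells (-4.10). Over the whole list 6 of 16 genes were higher and 4 lower, with a median of 0.07 (-0.10 with no minimum level). Ptgs1 (-1.43), the constitutive cyclooxygenase, and Alox5 (-1.11), which starts leukotriene synthesis, were lower.

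Of 27 protease and coagulation genes, 12 were higher, 11 with separate bounds, and 1 was lower (median 0.96). Mmp14 was at 310.4 FPKM after MALP2 and 4.45 FPKM in untreated cells, the collagenase gene Mmp13 at 115 FPKM after MALP2 and 1.55 FPKM untreated, and the urokinase receptor gene Plaur at 206 FPKM after MALP2 and 15.1 FPKM untreated. Among costimulation and adhesion genes 13 of 23 were higher and 2 lower (median 1.14). Cd40 was at 315 FPKM after MALP2 and 14.7 FPKM in untreated cells, and the integrin genes Itgal (3.69) and Itga5 (3.15) and the adhesion molecule Icam1 (2.54) were higher. Cd86, a ligand that costimulates T cells, was at 13 FPKM after MALP2 and 4.36 FPKM untreated with overlapping bounds, and Cd80 was under 2-fold (0.19). Of 33 Fc, paired and cytokine receptor genes 11 were higher and 4 lower (median 0.55), led by Tnfrsf9 (4.85), the activating and inhibitory pair Pilrb1 (2.87) and Pilra (3.95), and Tnfrsf1b, a TNF receptor, at 1556 FPKM after MALP2 and 239 FPKM in untreated cells. The inhibitory Fc receptor gene Fcgr2b was at 615 FPKM after MALP2 and 137 FPKM untreated, whereas the activating Fcgr3 (0.15) and Fcgr1 (0.49) were under 2-fold.

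Transcription factor genes were higher in 21 of 49 cases and lower in 4 (median 0.55). Ets2 was at 244 FPKM after MALP2 and 13.6 FPKM in untreated cells. The inhibitors of DNA binding Id1 (4.89) and Id3 (4.21), Myc (3.50), Fos (3.21), Junb (2.67), Cebpd (2.78) and Cebpb (2.71) were higher with separate bounds. Bhlhe41 was lower with separate bounds (10 FPKM after MALP2 and 40 FPKM untreated). Spi1, the gene of the macrophage master regulator PU.1, was at 1236 FPKM after MALP2 and 507 FPKM in untreated cells, and Irf8 (0.06) and Maf (-0.46) were under 2-fold.

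The type I interferon response was not among the higher groups. Of 36 genes 0 were higher and 7 lower, 3 with separate bounds, and the median was -0.44. Ifit2 was at 6.97 FPKM after MALP2 and 29.8 FPKM in untreated cells, Oasl2 at 104 FPKM after MALP2 and 221 FPKM untreated and Stat2, a subunit of the interferon-activated factor, at 30.4 FPKM after MALP2 and 74.1 FPKM untreated. Isg15 (0.40) and Mx1 (0.08) were under 2-fold. In untreated cells the list was already expressed, with Bst2 at 416 FPKM after MALP2 and 475 FPKM in untreated cells.

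Iron, metal and antioxidant genes were higher in 14 of 28 cases and lower in 1 (median 1.02). Sod2, the mitochondrial superoxide dismutase, was at 387 FPKM after MALP2 and 18.1 FPKM in untreated cells, the zinc and iron importer Slc39a14 at 205 FPKM after MALP2 and 9.44 FPKM untreated, the metallothionein Mt2 at 392 FPKM after MALP2 and 24.8 FPKM untreated and the haem oxygenase Hmox1 at 1551 FPKM after MALP2 and 282 FPKM untreated. The lower gene was Slc40a1, ferroportin, the iron exporter, at 1.24 FPKM after MALP2 and 30 FPKM in untreated cells. The ferritin heavy chain Fth1 was under 2-fold, at 24880.5 FPKM after MALP2 and 16174 FPKM in untreated cells. Of 29 cholesterol and lipid genes 7 were higher, 2 of them with separate bounds, and 4 were lower, 3 of them with separate bounds (median 0.24). Ch25h was at 218 FPKM (83.3 to 352) after MALP2 and 3.18 FPKM (1.01 to 5.34) in untreated cells. Abcg1, a cholesterol exporter, was lower at 4.28 FPKM (1.58 to 6.97) after MALP2 and 97.1 FPKM (34.8 to 159) in untreated cells, while Abca1, its partner in efflux, was under 2-fold (0.37).

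Survival and death genes had 8 of 23 members higher and 4 lower (median 0.31). Traf1 (3.60), the death receptor gene Fas (2.29) and Cflar (1.27), an inhibitor of caspase 8, were higher, and Bmf (-3.06) and Bbc3 (-1.54), which promote apoptosis, were lower, all with separate bounds. Bcl2a1b, at 299.5 FPKM after MALP2 and 83.6 FPKM in untreated cells, belongs to a cluster of near-identical copies, so its value is uncertain.

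Lower genes gathered in the list of FOXO targets, growth restraint and circadian genes, where 14 of 28 were lower, 11 with separate bounds, and 1 was higher (median -1.0). Low levels here were not particular to MALP2. Its library was the lowest stimulated one for 5 of 28 members (17.9%), near the 16.7% of all compared genes. The circadian output factor Dbp was at 0.98 FPKM after MALP2 and 24.9 FPKM in untreated cells, the mTORC1 inhibitor Sesn1 at 15.3 FPKM after MALP2 and 97.4 FPKM untreated, the glucocorticoid-induced Tsc22d3 at 9.06 FPKM after MALP2 and 45.4 FPKM untreated and Txnip, an inhibitor of glucose uptake, at 171 FPKM after MALP2 and 533 FPKM untreated. Core clock genes were mixed: Nr1d2 (-1.92) and Per3 (-1.39) were lower, and Per1 (0.02) and Cry1 (0.31) were under 2-fold. Nr1d2 and Per3 stood below their untreated levels (6.18 and 2.56 FPKM) in every stimulated library. That did not hold for every lower member, as Pik3ip1 was at 3.86 FPKM after IFNg and 3.13 FPKM untreated. The higher member was Cdkn1a, the cell cycle inhibitor p21, at 411 FPKM after MALP2 and 84.8 FPKM in untreated cells. S and M phase genes did not stand out by their count of lower members: 4 of 28 were lower, a share near the 11.7% of all compared genes. Of these, 3 had separate bounds, and 0 members were higher (median -0.56). Bub1b (-1.52) and Mcm7 (-1.38) were among the lower ones.

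Macrophage identity and homeostatic genes had 10 of 28 members lower and 4 higher (median -0.42). Mertk, which clears apoptotic cells, was at 1.15 FPKM after MALP2 and 22.7 FPKM in untreated cells, and the TGF beta receptor gene Tgfbr2 at 12.5 FPKM after MALP2 and 56.2 FPKM untreated. Csf1r (1271 FPKM after MALP2, 1439 FPKM untreated), Adgre1 (908 FPKM after MALP2, 816 FPKM untreated) and Cd68 (1587 FPKM after MALP2, 1945 FPKM untreated) were under 2-fold. The bounds of Csf1r were wide, 204 to 2338 FPKM after MALP2 and 133 to 2745 FPKM untreated. Of the 7 macrophage markers with a value, Mertk (-3.46) was lower, Spi1 (1.28) was higher and the rest were under 2-fold. All 7 exceeded 1 FPKM. Their summed level, which hides these opposite changes, was 5869 FPKM after MALP2 and 5284 FPKM in untreated cells.

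Markers of other cell types differed by type. None of 6 T and NK cell, 3 erythroid and 4 mast cell and basophil markers reached 1 FPKM in either library. Of 10 neutrophil markers 9 did, summing to 404 FPKM after MALP2 and 299 FPKM in untreated cells, with S100a8 at 181 FPKM after MALP2 and 117 FPKM untreated and the defining Ly6g at 0.163 FPKM after MALP2 and 1.85 FPKM untreated. Of 6 B cell markers 2 did, summing to 24.2 FPKM after MALP2 and 129.8 FPKM in untreated cells. Almost all of that was Ighm, at 21.9 FPKM after MALP2 and 122 FPKM in untreated cells. The macrophage identity list above also counts Ighm among its lower members. After the other 6 stimuli Ighm was at 14.8 to 29.1 FPKM. Stromal markers, of which 3 of 5 reached 1 FPKM, summed to 44.5 FPKM after MALP2 and 39.9 FPKM untreated, and dendritic cell markers (2 of 5) to 8.88 FPKM after MALP2 and 3.08 FPKM untreated. The part of these cells in the differences above was not tested, and in bulk RNA fewer cells of a type and less RNA per cell cannot be told apart.

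The lowest genes after Cxcr4 had levels of 0.189 to 4.28 FPKM after MALP2 and 20.9 to 97.1 FPKM in untreated cells. Slc26a11, an anion transporter, was at 0.686 FPKM (0.205 to 1.17) after MALP2 and 45.1 FPKM (23.7 to 66.5) in untreated cells. Rasgrp3, an activator of Ras proteins, was at 0.401 FPKM (0.208 to 0.593) after MALP2 and 30.6 FPKM (19.3 to 42) in untreated cells. Rgs2, which shortens G protein signals, was at 2.46 FPKM (1.25 to 3.67) after MALP2 and 65.4 FPKM (40.3 to 90.4) in untreated cells. The others were Arhgap19 (-4.48), Tmem154 (-4.44), Slc46a3 (-4.34), Abcg1 (-4.22), Lrrc14b (-4.20), Tcp11l2 (-4.19), Gpr162 (-4.13) and the lysosomal sulfatase gene Sgsh (-4.10). Slc26a11 and Sgsh are neighbours on mm9 chromosome 11, with listed loci of 119216870 to 119242393 and 119169081 to 119216850.

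By absolute difference in FPKM a housekeeping gene led the gains. Actb, the beta actin gene, was at 10098 FPKM (4974 to 15221) after MALP2 and 2365 FPKM (1280.0 to 3450.2) in untreated cells, the largest gain. Lcp1, an actin-bundling protein of leukocytes, was at 2241 FPKM after MALP2 and 962 FPKM untreated, and the pseudogene Gm12715, listed at 3335 FPKM after MALP2 and 869 FPKM untreated, may hold reads of its parent gene. The largest losses were smaller in size. Apobec1, a cytidine deaminase, was at 216 FPKM after MALP2 and 617 FPKM in untreated cells, Dhrs3, a retinal reductase, at 144 FPKM after MALP2 and 541 FPKM untreated, and Gyg, the glycogenin that primes glycogen, at 17.5 FPKM after MALP2 and 271 FPKM untreated. With Cxcr4 and Txnip, described above, Pmp22, Stom, Ehd4, Sdcbp and Mpp1 completed the 10 largest losses, those 5 with log2 changes between -2.89 and -1.04.

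The other 6 stimulated libraries were set beside the MALP2 library after joining the tables by their shared untreated values, which differed by 1 factor per table. All comparisons with untreated cells share the untreated library. Of the 12639 genes with an accepted estimate in every table, the MALP2 library held the highest level of the 7 stimulated libraries for 19.2% and the lowest for 16.7%. Among the higher genes it was highest for 379 of 1203 (31.5%), and among the lower genes it was lowest for 519 of 1483 (35%). Most genes that differed after MALP2 thus lay inside the range of the other 6 stimuli. The higher and lower sets were chosen by the MALP2 level itself, which favours larger shares than those of all genes. Glycolysis and hypoxia genes were highest after MALP2 in 16 of 29 cases (55.2%), whereas for chemokines it was 5 of 22 (22.7%) and for the type I interferon response 0 of 36. The lead of these 16 glycolysis and hypoxia genes over the next library was small, a log2 difference of 0.02 to 0.36, and the next library was CpG for 14 of them.

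For some of the lower genes the untreated library stood apart from all 7 stimulated ones. Choosing genes by their difference from untreated cells favours this pattern. Lrrc14b was at 0.189 FPKM after MALP2, 0.295 to 0.432 FPKM after the other 6 stimuli and 20.9 FPKM in untreated cells. Dbp was at 0.98 FPKM after MALP2, 0.766 to 1.62 FPKM after the other 6 and 24.9 FPKM untreated. Hpgd was at 0.892 FPKM after MALP2, 1.41 to 3.84 FPKM after the other 6 and 31.4 FPKM untreated, and Gyg at 17.5, 18.5 to 81.8 and 271 FPKM in that order of libraries. The same held for some higher genes: Actb was at 10098 FPKM after MALP2, 5152 to 9769 FPKM after the other 6 and 2365 FPKM in untreated cells, and Id1, an inhibitor of DNA binding, was at 60.2 FPKM after MALP2, 46.7 to 76.5 FPKM after the other 6 and 1.06 FPKM untreated. With 1 untreated library, a response common to every stimulus and a peculiarity of that library cannot be told apart. Others did not show this pattern, such as Cxcl2, at 1.09 to 326 FPKM after the other 6 stimuli and 2.01 FPKM untreated. Neither did Cxcr4, which was at 4.16 FPKM after MALP2, 7.61 to 44.8 FPKM in 5 other stimulated libraries and 322 FPKM after TGFb1. The level after TGFb1 was close to the 315 FPKM of untreated cells.

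Il1b and Saa3 stood at similar levels after MALP2 and after CpG, a ligand of Tlr9. Il1b was at 3018 FPKM after MALP2, 3078 FPKM after CpG, 1.06 to 158 FPKM after the other 5 stimuli and 3.87 FPKM in untreated cells. Saa3 was at 4717 FPKM after MALP2, 5358 FPKM after CpG, 3.5 to 184 FPKM after the other 5 and 9.98 FPKM in untreated cells. Marco was at 18.7 FPKM after MALP2, 9.37 FPKM after CpG and at most 1.21 FPKM after the other 5. Some inflammatory genes were lower after MALP2 than after CpG: Il12b was at 5.26 FPKM after MALP2 and 58.8 FPKM after CpG, Il10 at 18.1 FPKM after MALP2 and 75.4 FPKM after CpG, and Nos2 at 40.9 FPKM after MALP2 and 121 FPKM after CpG. These are values of single libraries, scaled separately by the authors.

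**Figure D4:**
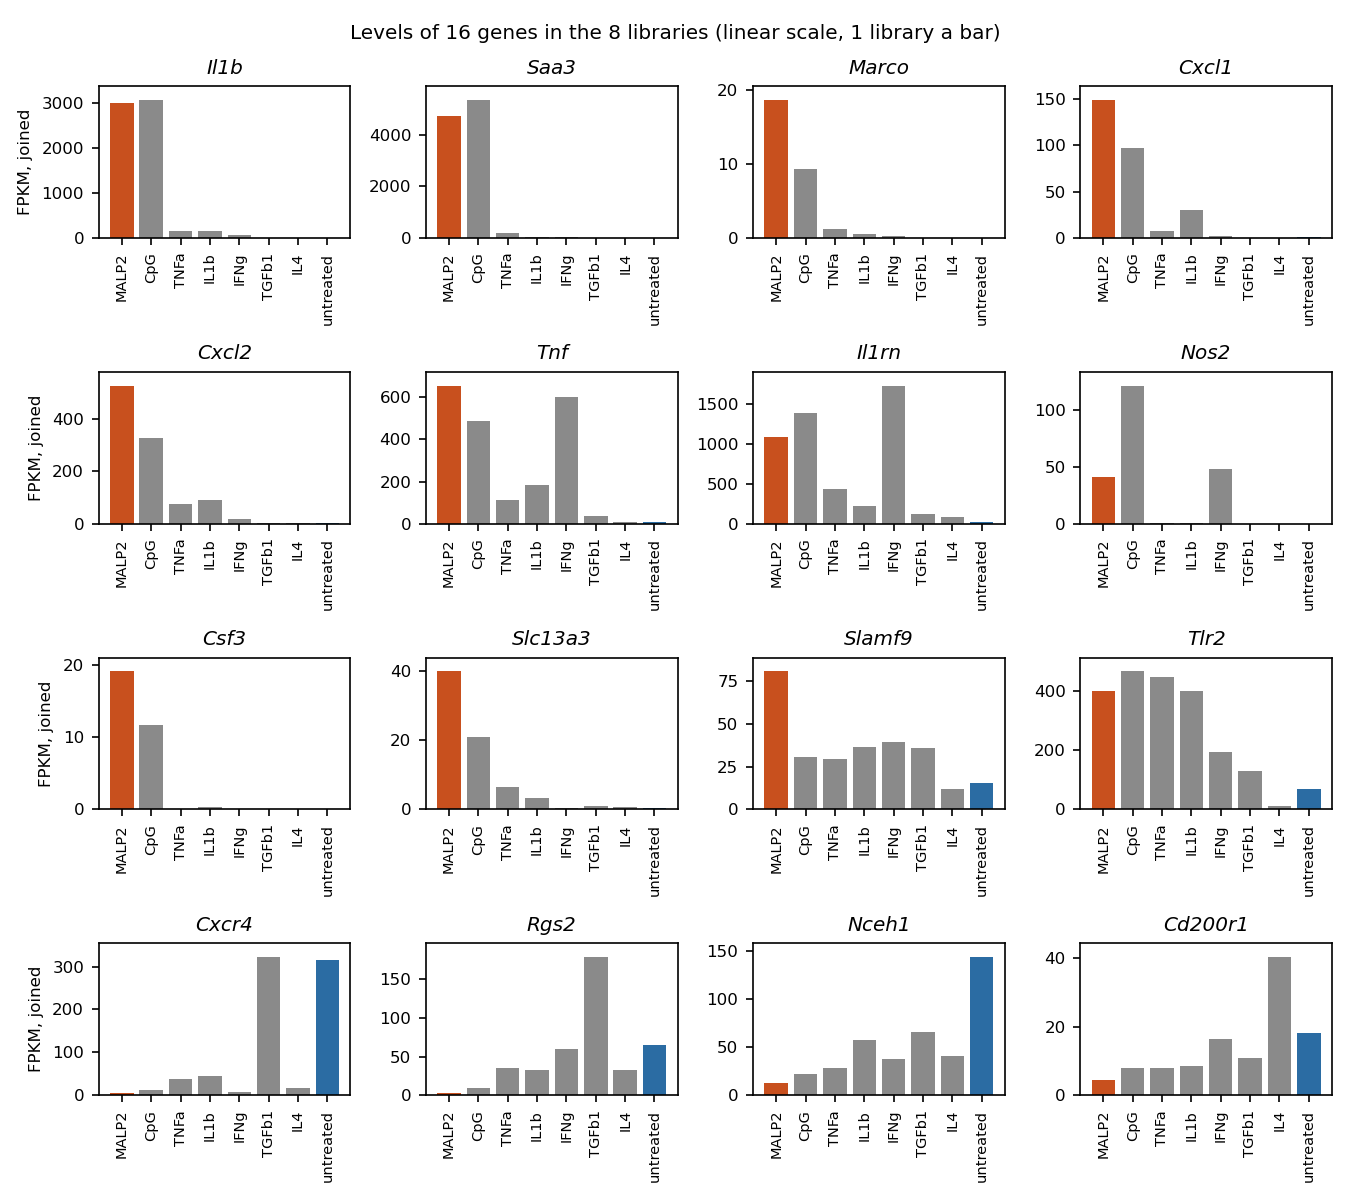
FPKM of 16 genes in the 8 libraries after joining the tables, 1 bar per library, with MALP2 in orange at the left, the other 6 stimulated libraries in grey and the untreated library in blue at the right; each panel has its own linear axis starting at 0. Il1b and Saa3 reach similar levels after MALP2 and CpG, Marco is highest after MALP2 at 18.7 FPKM, and Cxcr4 is high after TGFb1 and in untreated cells alone.

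Few genes set MALP2 apart from every other stimulus. The MALP2 level was at least 2-fold above the highest of the other 6 for 26 of 12639 genes and at least 2-fold below the lowest for 9. Of these, 3 of the 26 and 3 of the 9 were annotated as protein-coding, and the rest were short RNAs, processed pseudogenes, an rRNA or IDs unmatched to the annotation. The protein-coding ones above were Slamf9, a surface receptor of the SLAM family, Rasal1, a Ras inactivator, and Cisd3, a mitochondrial iron-sulfur protein whose bounds overlapped those in untreated cells. Rasal1 and Cisd3 were named after their values were seen. Rasal1 was at 2.71 FPKM after MALP2, 0.122 to 0.578 FPKM after the other 6 and 0.445 FPKM in untreated cells. Slamf9 was at 80.8 FPKM (32.3 to 129) after MALP2, 11.7 to 39.6 FPKM after the other 6 and 15.2 FPKM in untreated cells. Further genes of at least 5 FPKM after MALP2 exceeded the highest other library by log2 differences of 0.62 to 0.92. The dicarboxylate transporter Slc13a3 was at 40 FPKM after MALP2, 0.526 to 20.9 FPKM after the other 6 and 0.378 FPKM in untreated cells. Csf3 was at 19.1 FPKM after MALP2, 11.7 FPKM after CpG, at most 0.278 FPKM after the other 5 and 0.0118 FPKM in untreated cells. Cxcl1, Cxcl2, Pilrb1 and Marco were also among them, and CpG gave the next level for each of them. The highest other level lay within the MALP2 bounds for Slamf9, Csf3, Cxcl1, Cxcl2, Pilrb1 and Marco, so these leads are uncertain. For Slc13a3 it lay below the MALP2 bounds of 26.9 to 53.2 FPKM. Below every other stimulated library, Rgs2 was at 2.46 FPKM after MALP2 and 8.83 to 179 FPKM after the other 6, and Cytip, a regulator of leukocyte adhesion, at 1.96 and 6.67 to 13.5 FPKM. Nceh1, Cd300lf, C77080, Tent5c, Cxcr4 and Cd200r1 were lower than the lowest other library by log2 differences of -0.88 to -0.71.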

How the data were processed

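Alignment to mm9 and quantification used TopHat 1.3.1, Cufflinks 1.2.1 and Cuffdiff 1.2.1, per the submitters' processing notes. Neither their options nor the strandedness of the libraries is stated in these sources, so reads of overlapping or antisense genes may be mixed. The authors deposited FPKM per gene with lower and upper confidence bounds, per the file headers, in 1 table per stimulus with its own copy of the untreated library. The median distance from value to bound, as a percent of the FPKM, was 57.4% in the MALP2 library and 56.2% in the untreated library. FPKM is relative to each library's total, so abundant transcripts lower all others. A second deposited table holds the authors' Cuffdiff q-value and call: 2529 genes were called, with q-values of at most 0.0498. Its log2 ratio column was not used.

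From the FPKM, log2((MALP2 + 1)/(untreated + 1)) was computed for the 12722 genes with an accepted estimate in both libraries and at least 1 FPKM in either, a level that 23696 others did not reach. Left out were 388 genes that lacked an accepted estimate in 1 or both libraries. With 1 library per group no test was made. Genes named were, among those with separate bounds and the authors' call, the 15 highest, 12 lowest, 10 largest gains and losses of FPKM, 8 above and 8 below all other stimulated libraries, and up to 4 members of each list plus members with a defining role. The members and lists were chosen with earlier results of these data known. The tables were joined by the ratio of their untreated values, factors of 0.944 to 1.040. Symbols and biotypes came from GENCODE M21, which names 31840 of 36806 identifiers and leaves 4966 without a name. Loci are those of the deposited table in mm9, and can hold several genes. RefSeq promoter windows in GRCm38.p6 were found for 8396 of 12247 compared symbols. The counting rule was tested on simulated data. Alternatives were a pseudocount of 0.1 FPKM, centring on the median gene, floors of 5 FPKM or none, the authors' call, protein-coding genes, 4-fold, and levels without joining. Python 3.11.15, numpy 2.4.6, pandas 2.3.3 and matplotlib 3.10.9 were used. A few genes that the lists and naming rules include are not reported here.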

Additional observations from a re-analysis of the deposited data

How the results depend on the processing

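No paired analysis was possible because each group holds 1 library, and no replicate could be left out. The counts of genes at least 2-fold higher (1212) and lower (1491), and of those with separate bounds (643 and 854), were repeated under other settings. All stayed within 1.5 times of these values under a pseudocount of 0.1 FPKM, centring of the log2 change, a floor of 5 FPKM and protein-coding genes only. Removing the floor could not change them, since a 2-fold change on the FPKM + 1 scale already needs at least 1 FPKM. Asking also for the authors' call left 806 higher genes, while the other 3 counts stayed within that range. At 4-fold instead of 2-fold, 337 genes were higher and 318 lower, and with separate bounds 293 and 253, fewer by construction. None of the 55 named genes turned its direction under a pseudocount of 0.1 FPKM or centring, but 18 of 55 went further with the smaller pseudocount by more than the distance from the MALP2 level to its upper bound, all of them low in one library, such as Il1a (8.41) and Lrrc14b (-6.18). Medians of 4 lists moved with the floor or the pseudocount: cytokines to 0.84 without a floor, 2.66 with a floor of 5 FPKM and 3.04 with the pseudocount of 0.1 FPKM, chemokines to 4.06 with that pseudocount, and without a floor acute phase genes to 0.24 and scavenger receptors to -0.11. Depth and FPKM bounds limit genes of low level most.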
